A study of Arabidopsis thaliana with 4 samples.

Results

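The transcripts described here are those that the array's designer listed under RefSeq accessions with the prefix NR_, which RefSeq gives to RNAs with no annotated protein. They were chosen by that prefix, and the log2 ratios did not enter the choice. Of 43603 probes other than controls on the array, 471 carried such an accession, for 424 accessions, and 35551 carried an NM_ accession, the prefix of protein-coding transcripts. Testing also needed a signal well above background, by the scanner's own mark, in either channel or both on 3 or 4 of the 4 arrays. This held for 383 of the 471 NR_ probes (81.3%), for 342 accessions, and for 81.9% of the NM_ probes. None of the 424 accessions is in the RefSeq gene table used for names (0 of 471 probes matched, against 34185 of the NM_ probes). The transcripts are therefore given by accession, with no gene name, class of RNA or position, and the label "non-coding" rests on the prefix only.

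The arrays compared RNA of wild-type Arabidopsis thaliana seedlings of the strain Col, in the green channel (Cy3), with RNA of seedlings of the genotype vim1,2,3, in the red channel (Cy5). The series title calls the latter a triple mutant. Seedlings of both genotypes were 14 days old, grew on 1/2 B5 medium under 16 h light and 8 h dark, and were taken 6 h after the lights came on. Each of 4 arrays held a biological sample of each genotype, and the dyes were never swapped, so a dye effect on a probe does not cancel. The sources used here do not give the mutant alleles.

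VIM1, VIM2 and VIM3 are RING-finger proteins that bind hemimethylated and methylated DNA and are needed to keep up CG methylation after replication. CG methylation silences transposable elements and some genes, and many plant loci without a long reading frame lie in or beside such elements. RNAs without a protein include microRNA precursors, trans-acting siRNA precursors, antisense transcripts, structural RNAs and long RNAs of no known role.

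The probes of the named genes and of organ markers were read before the NR_ probes. The 2 VIM1 probes were lower in RNA labelled vim1,2,3 (mean log2 ratios of -1.76 ± 0.77 and -2.19 ± 0.37, SD, n = 4, limma, adjusted p = 0.0207 and 0.00158). VIM2 was at -1.42 and -1.31 on arrays 1 and 2 but at 1.82 and 1.11 on arrays 3 and 4, and VIM3 at -1.06 and -1.29 against 1.61 and 0.25. The RNA is therefore called "labelled vim1,2,3" throughout. The sources used here do not say whether these probes lie inside a disrupted part of the genes. Of the NR_ probes, 77.3% to 87.5% per array were well above background in Col and 65.2% to 83.0% in RNA labelled vim1,2,3, against 79.1% to 88.1% and 71.8% to 84.1% of the NM_ probes. All 4 leaf markers, 4 of 6 root markers, 1 of 4 pollen markers and 2 of 6 seed markers were tested, and 0 in each list were called by limma (unadjusted p under 0.05 above 0 for 1 root marker, and below 0 for 2 leaf markers and 1 root marker). At the shares of all tested probes that were called, 4.36% higher and 2.05% lower, lists this short hold few calls. Of the leaf markers, 3 were saturated in RNA labelled vim1,2,3 on 4 of 4 arrays, among them the 2 below 0, RBCS1A and RBCS2B. These 2 were also saturated in Col, on 2 arrays and 1 array, so their ratios cannot be read as falls. The means of the tested markers ran from -1.07 for PYK10, a root glucosidase, to 0.58 for COBL9, a root hair gene. PYK10 was saturated in RNA labelled vim1,2,3 on 2 arrays. Fewer cells of a type and less RNA per cell cannot be told apart in whole seedlings.

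The comparison asks which of these transcripts differ in amount between RNA labelled vim1,2,3 and RNA of Col. Of the 383 tested NR_ probes, 19 were higher and 19 lower in RNA labelled vim1,2,3, for 34 accessions, 17 in each direction. A call required an adjusted p under 0.05 over all tested probes (limma, Benjamini-Hochberg) together with a 2-fold or larger change. The called share was 4.96% in each direction, where 4.36% of all tested probes were called higher and 2.05% lower. Among NM_ probes alone the shares were 3.49% and 2.01%, and among probes with other identifiers 9.38% and 2.08%. The 38 called NR_ probes had the same sign on 4 of 4 arrays, which a call from 4 arrays nearly requires. At 4-fold or more, 13 NR_ probes were higher (3.39%) and 2 lower (0.522%), beside 1.56% and 0.136% of all tested probes and 0.927% and 0.12% of NM_ probes. With 1 probe for each locus or accession, 4.97% of NR_ accessions were higher and 4.97% lower, beside 4.45% and 2.26% of all and 3.35% and 2.25% of those with NM_ probes. At 4-fold or more these shares were 3.22% and 0.585%, beside 1.83% and 0.128% of all and 1.06% and 0.103% with NM_ probes. No test of the difference between the NR_ and the NM_ probes was made. Without arrays 3 and 4, on which VIM2 and VIM3 went against the label, 7 NR_ probes were called higher and 0 lower by limma, with 29 above and 39 below 0 at an unadjusted p under 0.05. These calls were 1.84% and 0% of NR_ probes, and the shares of NM_ probes fell alongside, to 0.317% and 0.0069%. The counts at an unadjusted p were made for NR_ probes only, so they have no share of other probes beside them. The 7 were the probes of NR_022466, NR_022967, NR_022468, NR_022374 and NR_022768 and 2 of the 3 probes of NR_022504. Without arrays 1 and 2 the counts were 25 and 26, beside 4.39% and 2.59% of NM_ probes. Without array 3 alone they were 13 and 6, beside 0.965% and 0.302% of NM_ probes. Without array 4 alone they were 14 and 7, beside 1.29% and 0.512%. With the channels treated as unpaired samples, with no replicate block, they were 16 and 10, beside 2.19% and 0.872%.

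**Figure D1:**
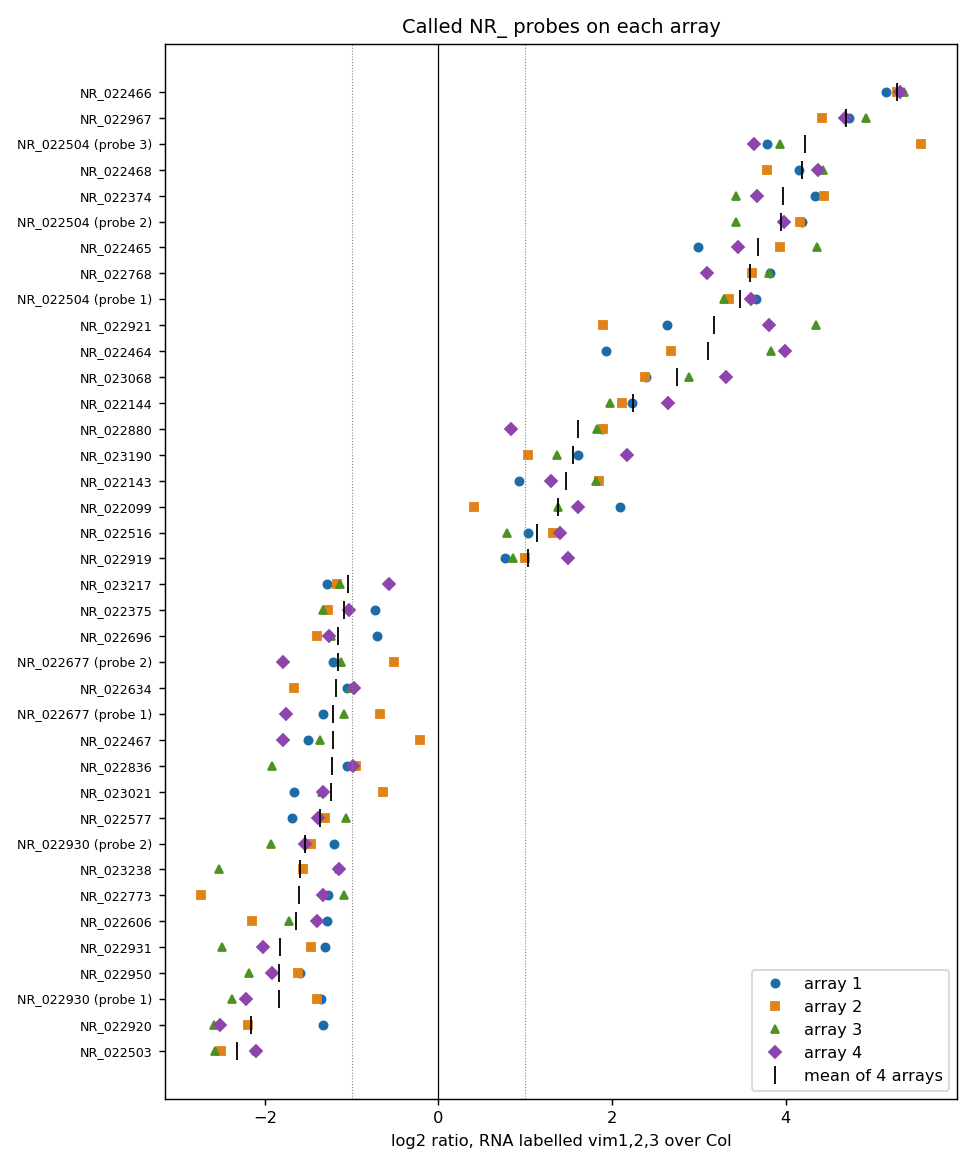
Log2 ratios of the 38 called NR_ probes, with a symbol for each of the 4 arrays and a bar for their mean, against accession, sorted by the mean. Dotted lines mark a 2-fold change, and a probe number is added where an accession has more than 1 called probe. Rises reach 5.28 while falls end at -2.32, and no called probe has an array on the other side of 0.

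The highest rises were more than 16-fold. NR_022466 had log2 ratios of 5.15, 5.28, 5.37 and 5.32 on arrays 1 to 4. Its median spot signals, before dye normalization, were 828, 713, 1077 and 918 in Col and 40284, 42334.5, 65163 and 54772 in RNA labelled vim1,2,3, so that the lowest signal of the latter stood far above the highest of Col. The rise was 38.9-fold (5.28 ± 0.09, SD, n = 4, limma, adjusted p = 4.05e-05), with the smallest spread over arrays among the rises of 4-fold and more. NR_022967 had ratios of 4.73, 4.42, 4.92 and 4.69, with signals of 183 to 341 in Col and 5703 to 12168.5 in RNA labelled vim1,2,3. It rose 25.8-fold (4.69 ± 0.21, adjusted p = 4.05e-05). NR_022468 had signals of 135 to 174 in Col and rose 18.2-fold, with 2979 to 4916 in RNA labelled vim1,2,3 (4.18 ± 0.30, adjusted p = 6.8e-05). With the scanner's processed signals its mean was 5.14, above the 5.09 of NR_022967, so the size and order of these 2 rises depend on the processing. The signals of both genotypes did not overlap for any of these transcripts, which were named for their large rises. The share of all tested probes without such overlap was not counted.

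NR_022504 was measured by 3 probes, which share this target and are not independent transcripts. All 3 were saturated in RNA labelled vim1,2,3 on 4 of 4 arrays, at the scanner's limit of 65290, so each change is a lower bound. Each bound is the fold change from the measured means, and the spread over arrays is not in it. The probes were at least 11.1-fold, 15.4-fold and 18.7-fold higher (measured means of 3.47, 3.94 and 4.23, limma, adjusted p = 8.09e-05, 0.000109 and 0.00129). The first of these had array values of 3.66, 3.35, 3.29 and 3.60 and the second 4.19, 4.16, 3.43 and 3.98. The third had 3.78, 5.56, 3.93 and 3.63, where Col was at a signal of 870.5 on array 2 against 2698 to 3157 on the others.

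NR_022374, NR_022465 and NR_022768 also rose, by measured means of 3.59 to 3.97. The saturated spots of NR_022374 and NR_022465 hold their means down, so these 3 are given in no order. NR_022374 had ratios of 4.34, 4.45, 3.43 and 3.67 (3.97 ± 0.50, SD, n = 4, limma, adjusted p = 0.000227). It was saturated in RNA labelled vim1,2,3 on arrays 3 and 4, where its ratios were lower. Its Col signals were also higher there, at 3713 and 3085.5 against 1932.5 and 1667 on arrays 1 and 2. The part of either in the lower ratios was not tested. NR_022465 had 2.99, 3.93, 4.36 and 3.45 (3.68 ± 0.59, adjusted p = 0.000547) and was saturated on 1 array. NR_022768 was not saturated on any, and its ratios of 3.82, 3.62 and 3.80 on arrays 1 to 3 and a lower one on array 4 (3.59 ± 0.34, adjusted p = 0.000146) came from Col signals of 154 to 226 and signals of 2513 to 3197 in RNA labelled vim1,2,3.

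The next rises differed more between arrays. NR_022464 had ratios of 1.93, 2.68, 3.83 and 3.99 and rose 8.62-fold (3.11 ± 0.98, SD, n = 4, limma, adjusted p = 0.00664), with no call without the replicate block (adjusted p = 0.0603). NR_022921 had 2.63, 1.90, 4.35 and 3.81 and rose by a mean of 3.17 (SD 1.11, adjusted p = 0.00938), with no call without array 4 (adjusted p = 0.0598). In both, arrays 3 and 4 were higher than arrays 1 and 2. Without arrays 3 and 4 their adjusted p was 0.127 and 0.13. Over the 19 called rises the median was 2.38 as a mean of arrays 1 and 2 and 3.45 as a mean of arrays 3 and 4. Of these 19, 18 were at 2-fold or more on the first pair of arrays and 19 on the second. Both counts follow largely from the call, which was made on the same 4 arrays. NR_023068 (2.74 ± 0.45, adjusted p = 0.000943) and NR_022144 (2.24 ± 0.29, adjusted p = 0.000931) rose 6.69-fold and 4.72-fold.

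Below 4-fold, 6 probes rose, with means of 1.03 to 1.61. NR_022880 had ratios of 1.89, 1.90, 1.82 and 0.84, with Col marked above background on 3 of them, and rose 3.06-fold (1.61 ± 0.52, SD, n = 4, limma, adjusted p = 0.0121). It had no call without array 3 (adjusted p = 0.0823) or without the replicate block (adjusted p = 0.153). NR_023190 was saturated in RNA labelled vim1,2,3 on 4 of 4 arrays and was at least 2.92-fold higher (measured mean of 1.55, adjusted p = 0.0119), with no call without array 3 (adjusted p = 0.0707). The other 4 were NR_022143, NR_022099, NR_022516 and NR_022919, the lowest at 1.03.

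The falls were smaller than the rises. The median of the called falls was -1.36 against 3.17 for the called rises, while among NM_ probes these medians were -1.23 and 1.42. NR_022503 had ratios of -2.11, -2.50, -2.57 and -2.10 and fell by a mean of 2.32 on the log2 scale (SD 0.25, n = 4, limma, adjusted p = 0.000614). Its signals were 3791, 4004, 6632 and 3400.5 in Col and 1061, 993, 1427 and 1023 in RNA labelled vim1,2,3. NR_022920 had -1.33, -2.19, -2.59 and -2.52 and fell 4.46-fold (-2.16 ± 0.58, adjusted p = 0.00554), from 1378 to 2988 in Col to 455 to 727. The other 17 called falls were under 4-fold. Without arrays 3 and 4 the means of NR_022503 and NR_022920 were -2.31 and -1.76 (adjusted p = 0.0933 and 0.23).

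NR_022950 had signals of 13263 to 20059 in Col and of 5388.5 to 11108.5 in RNA labelled vim1,2,3. It fell 3.56-fold (-1.83 ± 0.28, SD, n = 4, limma, adjusted p = 0.00212). The 2 probes of NR_022930 fell 3.58-fold and 2.90-fold. The first had -1.35, -1.40, -2.38 and -2.22 (adjusted p = 0.00831) and no call without array 3 (adjusted p = 0.054) or array 4 (adjusted p = 0.0528). The second had -1.21, -1.47, -1.92 and -1.53 (adjusted p = 0.00509) and no call without the replicate block (adjusted p = 0.0578). NR_022931 had -1.31, -1.47, -2.49 and -2.02 (-1.82 ± 0.54, adjusted p = 0.00856), and no call without array 4 (adjusted p = 0.0576). In these probes of NR_022930 and NR_022931 the falls of arrays 3 and 4 were larger than those of arrays 1 and 2. Over the 19 called falls the medians of these pairs of arrays were close, at -1.36 and -1.46.

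NR_022606 fell 3.11-fold (-1.64 ± 0.39, SD, n = 4, limma, adjusted p = 0.00636), with no call without array 3 (adjusted p = 0.0552). NR_022577 fell 2.57-fold (-1.36 ± 0.25, adjusted p = 0.00658) and was called without each array in turn (adjusted p of 0.0174 to 0.0447). NR_022773 and NR_023238 fell as well (measured means of -1.61 and -1.60, limma, adjusted p = 0.0252 and 0.0191). RNA labelled vim1,2,3 was above background on 2 of 4 arrays for each, so both entered the test through Col, and neither was tested where both channels had to pass. No fold is given for them. Both lost the call without array 3 (adjusted p = 0.0933 and 0.0543) and without array 4 (0.0896 and 0.0654), and NR_022773 also without array 1 (0.0633). NR_023238 had no call without the replicate block either (adjusted p = 0.212).

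Where an accession had more than 1 tested probe, the probes served as a check within the transcript. There were 32 such accessions, with 73 probes, and the distance between the highest and lowest mean of an accession had a median of 0.25 on the log2 scale. All tested probes were called in 3 accessions, NR_022504 (higher), NR_022677 and NR_022930 (both lower). In NR_022577 and NR_023021 1 of 2 probes was called lower, at -1.36 and -1.24, and the other stood at -0.38 and -0.49. In 27 accessions none was called. The probes of 8 accessions had means of opposite sign, none with 2-fold changes in both directions. NR_022452, with 8 probes, ran from -0.65 to 0.51, and the widest distance, 1.27, was that of NR_023273.

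**Figure D2:**
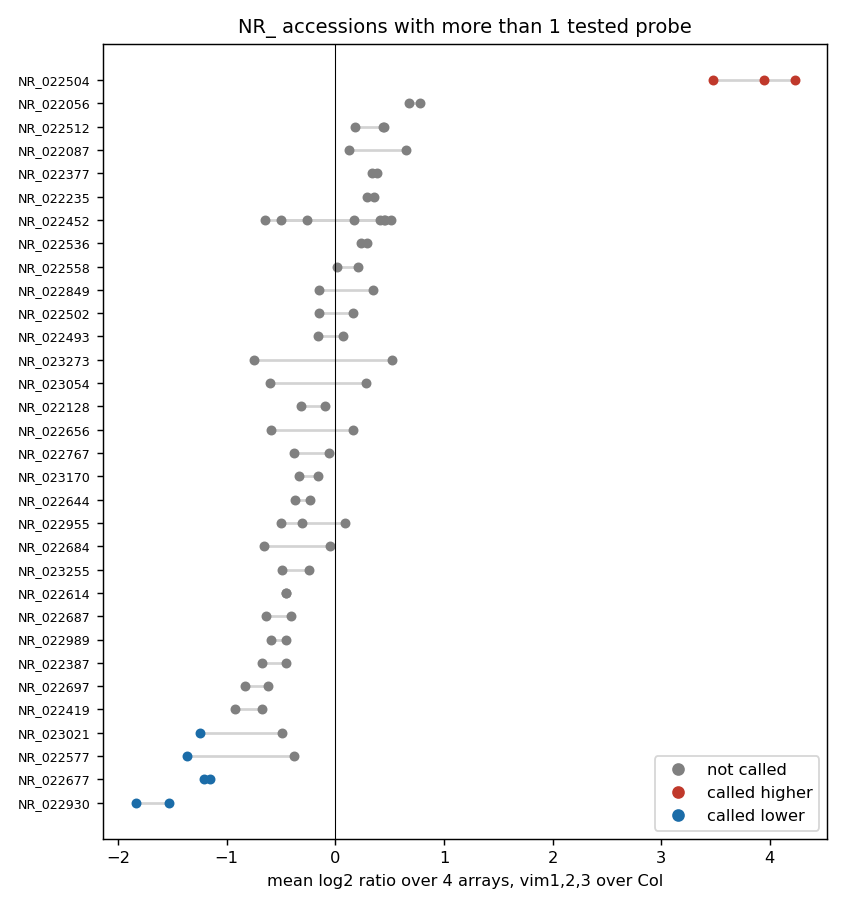
Mean log2 ratio over 4 arrays of each tested probe for the 32 NR_ accessions with more than 1 tested probe, a point for each probe and a line joining the probes of an accession. The 3 probes of NR_022504 lie between 3.47 and 4.23, apart from all other accessions shown, and 8 accessions have probes on both sides of 0.

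Some called transcripts carried consecutive accession numbers. Among the tested accessions there were 108 pairs of consecutive numbers, and in 10 of these both members were called. In all, 34 of 342 accessions (9.94%) were called, a share of single accessions that is no baseline for pairs. No count of pairs was made for NM_ accessions. The 10 pairs held 16 accessions, so some pairs share a member. The longest run was NR_022464 to NR_022468, in which 4 members rose by 3.11 to 5.28 and NR_022467 fell (-1.22). NR_022919 rose, NR_022920 fell and NR_022921 rose, NR_022503 fell and NR_022504 rose, and NR_022374 rose and NR_022375 fell. NR_022143 and NR_022144 both rose, and NR_022930 and NR_022931 both fell. The direction was shared in 4 of the 10 pairs and opposite in 6. Several of these directions rest on unstable calls. NR_022467 and NR_022919 were each called in only 1 of the 4 fits that left out an array, and NR_022375 and NR_022143 in 2. The sources used here do not say whether consecutive numbers stand for neighbouring or similar sequences, and the pairs were looked at after the calls were known.

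Most of the NR_ probes were not called. The 345 tested probes that were not called had means from -1.18 to 1.90. Of these, 30 had an adjusted p under 0.05 and less than a 2-fold change, 9 above 0 and 21 below. The 21 include the 1 tested NR_ probe saturated in both channels on 4 of 4 arrays (mean -0.69, limma, adjusted p = 0.0275). They also include a probe saturated in RNA labelled vim1,2,3 on 4 arrays and in Col on 3 (mean -0.69, adjusted p = 0.0276). Such ratios cannot be read as falls. A further 9 were past 2-fold with a larger p. The highest, NR_023264, was at 1.11, 1.23 and 3.36 on arrays 1 to 3 and had no usable spot on array 4 (adjusted p = 0.06, 3 arrays), with Col never marked above background. NR_022439 was at 2.99 on array 1, near 0 on array 2, at 1.38 on array 3 and at 2.53 on array 4 (limma, adjusted p = 0.0621).

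Over all tested probes, the NR_ transcripts had a median log2 ratio of -0.06, close to the -0.01 of NM_ probes and the -0.00406 of all tested probes. The quartiles of NR_ probes were -0.47 and 0.30 and those of NM_ probes -0.33 and 0.34. A mean below 0 was found for 54.3% of NR_ probes and 51.1% of NM_ probes, and values below 0 on 4 of 4 arrays for 24.8% and 20.3%. The medians of NR_ probes on arrays 1 to 4 were -0.04, -0.16, -0.06 and -0.03, so that array 2 was the lowest. The NR_ median minus the NM_ median was -0.03, -0.15, -0.06 and -0.03 (mean -0.07 ± 0.06, SD, n = 4), below 0 on 4 of 4 arrays. Its size was near its spread over arrays, and no p is given for a value over many probes. The SD of a probe over the 4 arrays had a median of 0.42 for NR_ probes and 0.37 for NM_ probes. Both channels were well above background on at least 3 arrays for 80.4% of tested NR_ probes and 89.4% of tested NM_ probes. The part of dimmer signal in these distributions was not tested.

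**Figure D3:**
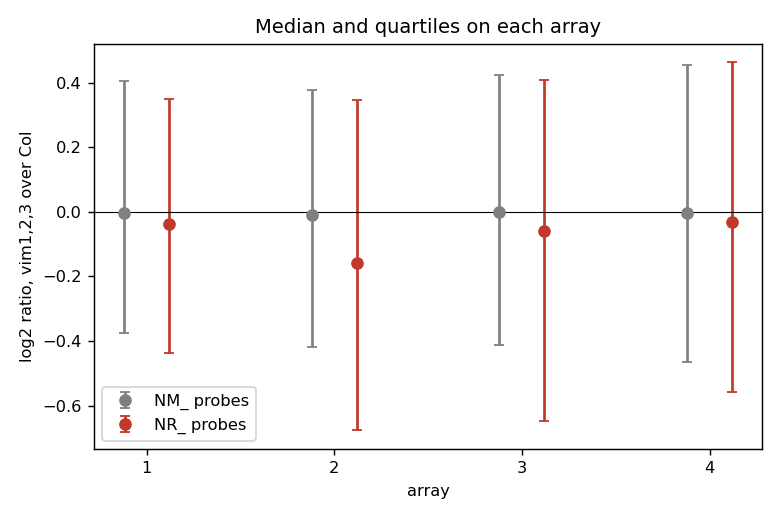
Median (points) and quartiles (bars) of the log2 ratio of tested NR_ and NM_ probes on each of the 4 arrays. The NR_ medians run from -0.16 on array 2 to -0.03 on array 4, and the lower quartiles of NR_ probes lie below those of NM_ probes on all 4 arrays.

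**Figure D4:**
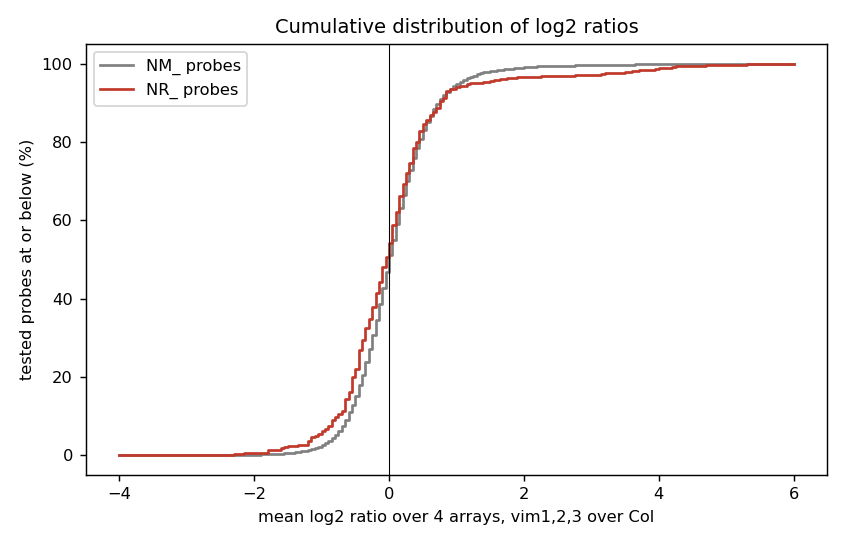
Share of tested probes, in percent, with a mean log2 ratio over 4 arrays at or below the value on the x axis, for 383 NR_ probes and 29118 NM_ probes. The NR_ curve lies above the NM_ curve from -2.3 to 0. It crosses the NM_ curve between 0.6 and 0.9 and lies under it from 0.9 to 5.25. On this side 3.39% of NR_ probes were called higher at 4-fold or more against 0.927% of NM_ probes.

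The background filter was the threshold that decided which NR_ probes were tested. The 31 NR_ probes that met it on exactly 3 arrays had means from -0.99 to 0.84 (median -0.12), and 0 of them were called. The 25 that met it on 2 arrays, and so were not tested, had means from -0.71 to 1.22 (median -0.10). In all 88 NR_ probes were not tested, 36 of them not well above background in either channel on any array. Their means ran from -0.71 to 1.22, with 2 past 2-fold. NR_023180 was the higher of these, at 1.09, 1.30, 1.35 and 1.13. For it Col never passed the background mark and RNA labelled vim1,2,3 did on 2 arrays. The other, NR_022246, was at 0.17, 0.38, 2.14 and 1.85.

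Genes that make small RNAs from RNA precursors, and genes that degrade RNA, were set beside the NR_ transcripts, each by its brightest tested NM_ probe. Of 16 genes for small RNA production, 0 were called by limma (1 was below 0 at an unadjusted p under 0.05, and the median was -0.23). ABH1, the large subunit of the nuclear cap-binding complex, had values of -0.67, -0.46, -0.62 and -0.91 (-0.66 ± 0.19, SD, n = 4, adjusted p = 0.0366), below 0 on all 4 arrays and short of 2-fold. HEN1, which methylates small RNAs, was at -0.37 ± 0.27 (adjusted p = 0.162). DCL1, the Dicer of microRNA precursors, was at -0.16 and AGO1, which carries microRNAs, at -0.24. Of 14 genes for RNA decay, 0 were called by limma (1 above 0 and 3 below at an unadjusted p under 0.05, with a median of -0.13). RRP44A, a ribonuclease of the exosome, was at -0.62 ± 0.23 (adjusted p = 0.0476) and UPF3, a factor of nonsense-mediated decay, at 0.53 ± 0.26 (adjusted p = 0.0768). Values of both lists lay between -0.66 and 0.53. Of all 34492 tested probes, 4.36% were called higher and 2.05% lower, so lists this short hold few calls at those shares. At an unadjusted p under 0.05 (limma), 6228 of all tested probes were above 0 and 5602 below. The counts in both lists are therefore not read as a result about these genes.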

How the data were processed

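RNA of 4 biological samples of each genotype was hybridised to 4 Agilent 2-colour arrays. Per the file headers, Agilent Feature Extraction 10.7.3.1 made the deposited spot values, among them a median intensity and a local background for each channel. Per the file headers, it also detrended and dye-normalized a processed intensity, whose red over green it gives as log10. In the deposited series matrix are log2 values with the direction and scale of that ratio (correlations of 0.998 to 0.999). The sources used here do not state how these were normalized or centred, and their medians were -0.09, 0.01, -0.04 and -0.03.

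Median intensities were corrected by normexp (offset 50) and loess within arrays in limma 3.58.1 (R 4.3.3, data.table version 1.17.8), with control spots at weight 0. Control spots (1417 of 45220) and 42 to 196 outlier spots per array were then left out, and spots of a probe averaged. lmFit with an intercept and eBayes were run over 34492 probes with Benjamini-Hochberg adjustment, and tested on simulated data. The array pairs the 2 RNAs, so it acts as the replicate block. With intensities there is no counting depth, and precision is limited by the number of arrays.

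The members and lists were chosen with earlier results of these data known. The rule named the 15 largest rises and 10 largest falls of the same sign on 4 arrays and, in the gene lists, up to 2 genes with the smallest p. Other accessions named, and DCL1, AGO1, PYK10 and COBL9, were picked after their values were seen. A planned grouping by class of RNA (TAS and target mimic loci included), antisense partner or neighbouring locus was not run, as no accession matched. Alternatives were processed signals, median centring, the series matrix, other filters, a single probe for each locus, unpaired channels, array weights, no minimum fold and each array left out. Leaving out arrays 3 and 4, or 1 and 2, was chosen after seeing the data.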

Additional observations from a re-analysis of the deposited data

Results flagged for a closer look

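In 5 of 46 values looked at over 4 arrays (called or named probes and the NR_ median), 1 array stood apart from the other arrays by Dixon's test at its 95% value, and chance alone marks about 1 group in 20. One probe of NR_022504 was at 5.56 on array 2 against 3.63 to 3.93, with the probe saturated in RNA labelled vim1,2,3. NR_022773 was at -2.73 on array 2 against -1.33 to -1.09. NR_022634 was at -1.66 on array 2 against -1.05 to -0.98. NR_022836 was at -1.92 on array 3 against -1.05 to -0.95. NR_022880 was at 0.84 on array 4 against 1.82 to 1.90. What set these arrays apart was not tested.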

How the results depend on the processing

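The NR_ counts of 19 higher and 19 lower ran from 13 to 27 and from 6 to 21 when each array was left out in turn, with the fewest falls without array 3 (6) and array 4 (7). Of the 38 calls, 17 were made in each of these 4 fits, 12 higher and 5 lower. Falls numbered 31 with the scanner's processed signals and with median centring, 10 with no replicate block and 40 with no minimum fold (28 rises). Without arrays 3 and 4 there were 7 rises and 0 falls. Rises were 50% of the NR_ calls, but 42.6% with processed signals, 38.0% with median centring, 61.5% with no replicate block, 40.6% without saturated probes, 68.4% and 66.7% without array 3 and array 4, and 100% without both. For NM_ probes they were 63.5%, but 44.1% with processed signals, 44.6% with median centring, 51.3% with the series matrix, 71.5% with no replicate block, 76.2% and 71.6% without array 3 and array 4, and 97.9% without both. The NR_ median of -0.06 moved to -0.19 with processed signals and -0.14 with median centring, which took the median of all probes from -0.00406 to -0.11. The NR_ median minus the NM_ median stayed below 0 under all alternatives run, between -0.10 (processed signals) and -0.0016 (1 probe a locus). VIM2 changed sign with processed signals (-0.14), median centring (-0.0417), without array 3 (-0.54), array 4 (-0.30) and both (-1.36). It was 0.54 without array 1, and 1.46 without arrays 1 and 2, where it was called higher (limma, adjusted p = 0.0369). VIM3 did so with array weights (0.14), without array 1 (0.19), array 2 (0.27) and both (0.93). It was -0.70 without array 3 and -1.18 without arrays 3 and 4. The cause was not tested. None of the 25 NR_ probes named by the rule changed sign under any alternative that gave it a value. They were chosen for the same sign on 4 arrays, so leaving out or weighting arrays could not change it. The filters, 1 probe a locus and unpaired channels left their means as they were. Processed signals moved the sizes of some of them. NR_022468 went from 4.18 to 5.14, NR_022768 from 3.59 to 4.34 and NR_022921 from 3.17 to 4.24. NR_022466 went only from 5.28 to 5.38 and NR_022374 from 3.97 to 3.92. The 2 lists of protein-coding genes had 0 calls under every alternative that keeps the 2-fold minimum. In the main fit ABH1 and RRP44A had an adjusted p under 0.05 short of it. With no replicate block it was 0.0519 and 0.0624 (limma). Without array 1 it was 0.109 and 0.0901, without array 3 0.144 and 0.184, and without array 4 0.122 and 0.144. Without array 2 it was 0.0454 for ABH1 and 0.0717 for RRP44A, and without saturated probes 0.0503 for RRP44A. Signal over background limits NR_ probes more than NM_ probes, and 6 called rises rest on probes with saturated spots, 4 of them saturated on all arrays, so that 13 rises were left without saturated probes.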
